A study of Mus musculus with 12 samples.

Results

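The genes described here handle sphingosine 1-phosphate (S1P) inside the cell. They are the sphingosine kinase genes Sphk1 and Sphk2, the S1P lyase gene Sgpl1, the S1P phosphatase genes Sgpp1 and Sgpp2, the exporter genes Spns2 and Mfsd2b, and Aldh3a2, which encodes a fatty aldehyde dehydrogenase. They were taken from the count table by gene symbol and make up 8 of its 22753 genes. All 8 had enough reads to be tested, beside 15179 tested genes in all.

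RNA sequencing was carried out on mouse embryonic stem cells, which are self-renewing cells derived from the early embryo, grown in serum with leukemia inhibitory factor. The cells were clones 10 and 4, derived from Sphk1fl/fl Sphk2-/- mice, and all were kept for 48 hours in 6 uM (Z)-4-hydroxytamoxifen and sorted by the fluorescence of Cre-GFP. The GFP-positive cells are labelled Sphk1-/- Sphk2-/- and the GFP-negative cells Sphk1fl/fl Sphk2-/-. Each of the 4 groups had 3 libraries. Every group thus carries the Sphk2 deletion and received the drug, and the comparison of the gates bears on the loss of Sphk1 from cells that already lack Sphk2. Cells with both kinases are not among the groups, and each clone stands for its own derivation only. Neither the source nor the promoter of the Cre-GFP is stated in the labels. Passage numbers ran from 11 to 20. In clone 10 they were 12, 18 and 20 in GFP-positive replicates 1 to 3, against 11, 17 and 19 in GFP-negative ones. In clone 4 they were 11, 14 and 16 against 11, 13 and 15. Except in clone 4 replicate 1, the GFP-positive library was thus of a later passage than the GFP-negative library of the same number. Gate and passage cannot be told apart between such libraries. Each replicate of a group had its own passage number, so the replicates were not repeat libraries of a single harvest. Nothing says that they came from independently started cultures. The spread behind the p-values is that among these libraries and may be partly technical.

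S1P is made by adding a phosphate group to sphingosine, a reaction carried out by either sphingosine kinase. The phosphatases reverse this step and return sphingosine to the pool used for ceramide. The lyase ends the pathway by splitting S1P into a fatty aldehyde and phosphoethanolamine, and the aldehyde is oxidised to a fatty acid. S1P that leaves the cell through an exporter can act on its receptors at the cell surface.

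The libraries held 12968916 to 34258395 counts. The 11 markers of pluripotent stem cells were present in every library, with summed levels of 6285 to 11470 CPM, a unit that relates each read count to the total of its library. Endothelial markers summed to 110 to 463 CPM, with Emcn at 0 in clone 10 GFP-negative and clone 4 GFP-positive cells, and erythroid and megakaryocyte markers to 4.97 to 21.3 CPM, with the adult globin genes Hbb-bs and Hbb-bt at 0 throughout. The shallowest library was clone 10 GFP-negative replicate 1, which also had the smallest share of counts in mitochondrial genes, at 0.143%. By CPM it was the lowest of the 12 libraries for 6 of the 8 genes, namely Sphk1, Sgpl1, Sgpp1, Spns2, Mfsd2b and Aldh3a2, and for 5, not Sphk1, after the TMM normalization used for the tests, which adjusts library sizes for RNA composition. Many values that depend on it are therefore also given without it, but not all.

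Libraries that shared clone and replicate number deviated together from their groups. The gates were therefore compared in 2 ways, across all libraries and within the 6 pairs that share clone and number. Changes are log2 fold changes, each with its standard error (SE), intervals cover 95%, and p-values come from the edgeR quasi-likelihood test with Benjamini-Hochberg adjustment over all tested genes. Genes with an adjusted p below 0.05 are named as called.

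Other features of the libraries moved with the gate. The mitochondrial share was 0.849%, 2.32% and 1.22% in clone 10 GFP-positive replicates 1 to 3, against 0.143%, 2.11% and 1.03% in GFP-negative ones, and 0.851%, 0.896% and 2.21% in clone 4 GFP-positive cells, against 0.594%, 0.845% and 1.43% in GFP-negative ones. Markers of the 2-cell-like state, a rare state of stem cells, summed to 658 to 3155 CPM in GFP-positive against 62.8 to 153 CPM in GFP-negative cells of clone 10. In clone 4 they summed to 21.5 to 214 CPM in GFP-positive against 3.54 to 14.0 CPM in GFP-negative cells. Of these 9 markers, 8 were called higher over both clones within pairs. The pluripotent stem cell markers summed to 7145 to 7902 CPM in GFP-positive against 8465 to 11470 CPM in GFP-negative cells of clone 10. In clone 4 they summed to 6285 to 7732 CPM against 6515 to 9986 CPM. Within pairs over both clones, 1 of these 11 markers had a positive change, their median was -0.23, and edgeR called 0. Of 8 primitive endoderm markers, 0 were called over both clones by edgeR within pairs (2 had an unadjusted p under 0.05) or by DESeq2, and in clone 10 within pairs Sox17 was called higher and Lama1 lower, with changes of 1.60 (SE 0.35) and -0.87 (SE 0.15). The part of these features in the changes given here was not tested.

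Across these cells, RNA for the enzyme that destroys S1P was abundant and RNA for the enzymes that make it was scarce. All the cells are labelled null for Sphk2, and the GFP-positive ones also for Sphk1. Sgpl1 averaged 36.0 CPM per kb of annotated exon over the 12 libraries, against 9.99 CPM per kb for Aldh3a2 and 4.30 CPM per kb for Sgpp1. Spns2 averaged 1.27, Mfsd2b 1.21 and Sphk2 1.20 CPM per kb. Sphk1 averaged 0.384 and Sgpp2 0.160 CPM per kb. In GFP-negative cells alone, Sphk1 averaged 0.447 in clone 10 and 0.472 in clone 4, against 0.352 and 0.264 CPM per kb in GFP-positive cells. The first 3 genes kept their order in every library, with Sgpl1 2.56 to 5.72 times as high per kb as Aldh3a2, Aldh3a2 1.60 to 3.26 times as high as Sgpp1, and Sgpp1 2.00 to 6.19 times as high as Spns2. Spns2, Mfsd2b and Sphk2 could not be ordered. Spns2 stood above Mfsd2b in 5 of 12 libraries and Mfsd2b above Sphk2 in 7. Sphk2 exceeded Sphk1 in 11 of 12 libraries, and Sphk1 exceeded Sgpp2 in 11. Per kb, Sgpl1 was 11.6 to 89.7 times the sum of both kinase genes, with a median of 18.9.

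**Figure D1:**
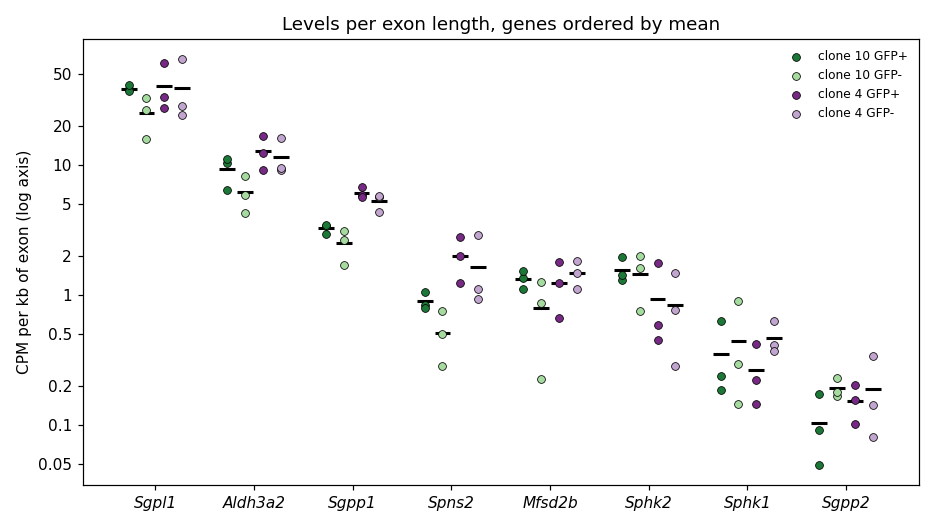
Levels of the 8 genes in CPM per kb of annotated exon (vertical log axis), ordered by their mean. Each point is 1 of the 12 libraries, coloured by clone and gate, and the bars are group means. The lyase gene Sgpl1 averages 36.0 and the phosphatase gene Sgpp2 0.160 CPM per kb, while Spns2, Mfsd2b and Sphk2 overlap near 1.2.

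The kinase genes are the ones named in the genotype. Reads of Sphk1 (ENSMUSG00000061878, mm10 chromosome 11, positions 116530925 to 116536674, plus strand) were found in every library, at 9 to 90 counts. In clone 10, Sphk1 stood at 0.890, 1.14 and 3.01 CPM in GFP-positive replicates 1 to 3, against 0.694, 1.41 and 4.30 CPM in GFP-negative replicates. Clone 4 gave 2.02, 1.07 and 0.701 CPM in GFP-positive cells, against 1.96, 3.02 and 1.78 CPM in GFP-negative cells. The gates overlapped in both clones. Libraries of clone 10 were low in replicate 1 and high in replicate 3 in both gates. Pair means over both clones spanned 1.92 on the log2 scale. Differences within a pair ran from -1.41 to 0.052, with a median size of 0.42. In clone 4 pairs 1 to 3 the differences were -0.021, -1.41 and -1.17, and the pair means were 0.99, 0.83 and 0.29.

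The log2 change of Sphk1 in GFP-positive cells, taken over both clones, was -0.63 across all libraries (SE 0.46, interval -1.62 to 0.37, adjusted p = 0.767). The value within pairs was -0.61 (SE 0.25, adjusted p = 0.166) with an interval of -1.17 to -0.051, and it was -0.90 in clone 4 (SE 0.35, adjusted p = 0.624) and -0.33 in clone 10 (SE 0.35, adjusted p = 0.568). Sphk1 therefore did not pass the test in either clone. An exact two-sided permutation of the gates within clones gave p = 0.23 over 400 arrangements, and exact sign changes of the 6 pair differences gave p = 0.0938 over 64, where the smallest possible values are 0.005 and 0.0312. Both used TMM scaling, and with total-count scaling the exact p-values were 0.315 and 0.188. The interval within pairs covers both a loss of more than 1 log2 unit and almost no change. Without the shallowest library and its partner the change within pairs was -0.67 (SE 0.25, adjusted p = 0.143). The third pair of clone 10 moved the value across all libraries, which was -0.95 when only its GFP-positive library was left out and -0.19 when only its GFP-negative library was. In the authors' deposited table, the log2 fold change of Sphk1 was -0.50 in clone 4 (SE 0.31) with an adjusted p of 1, and -0.27 in clone 10 (SE 0.42) with an adjusted p of 0.905.

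These totals do not check the Sphk1 label. The labels do not name the deleted exons, and reads from exons that remain would count toward the gene. A further 192 of the 4774 exon bases of Sphk1, or 4.02%, are shared with Gm29292 on the opposite strand in the GENCODE M21 annotation, and whether strand was used in the counting is not given in the sources used here. In bulk RNA of this kind, fewer cells that express a gene and less RNA per cell cannot be told apart.

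Between the gates, Sphk1 ran the same way by CPM as a sum of markers of fibroblasts, cells that are often used as feeders for stem cells. The growth protocol in the labels names no feeders. The summed level of 16 such markers was 1576 against 947 CPM, 1655 against 1978 CPM and 2708 against 3949 CPM in the GFP-positive and GFP-negative libraries of clone 10 pairs 1 to 3. In clone 4 it was 1923 against 1738 CPM, 2444 against 3459 CPM and 1501 against 1823 CPM. The gate with more Sphk1 was the gate with more of these markers in 6 of 6 pairs by CPM, and in 5 of 6 after TMM normalization, where Sphk1 in clone 4 pair 1 was 1.89 against 1.92 CPM. For Sphk2 it was 5 of 6 pairs on both scales, and for the remaining members from 1 (Sgpp2) to 4 (Mfsd2b) of 6. How many of all tested genes do the same was not counted. By CPM, for both Sphk1 and the marker sum, the highest library was clone 10 GFP-negative replicate 3 and the lowest clone 10 GFP-negative replicate 1. All 16 markers were detected in every group, and 15 were tested. By edgeR, 0 were called across all libraries, with an unadjusted p under 0.05 for 4 and 2 called by DESeq2, whereas 5 were called lower in GFP-positive cells within pairs (Acta2, Tagln, S100a4, Postn and Dcn, log2 changes -1.88, -1.26, -1.86, -1.58 and -1.64). Most of the sum came from Fn1 and Sparc. Without them, a split chosen after their levels were seen, the other 14 summed to 94.2 to 1250 CPM and had their lower value on the GFP-positive side of every pair except clone 10 pair 1. In clone 4 pair 1 these 14 summed to 154 against 234 CPM, the opposite direction to Sphk1 by CPM. Neither the presence of fibroblasts nor their part in the level of Sphk1 was tested.

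**Figure D2:**
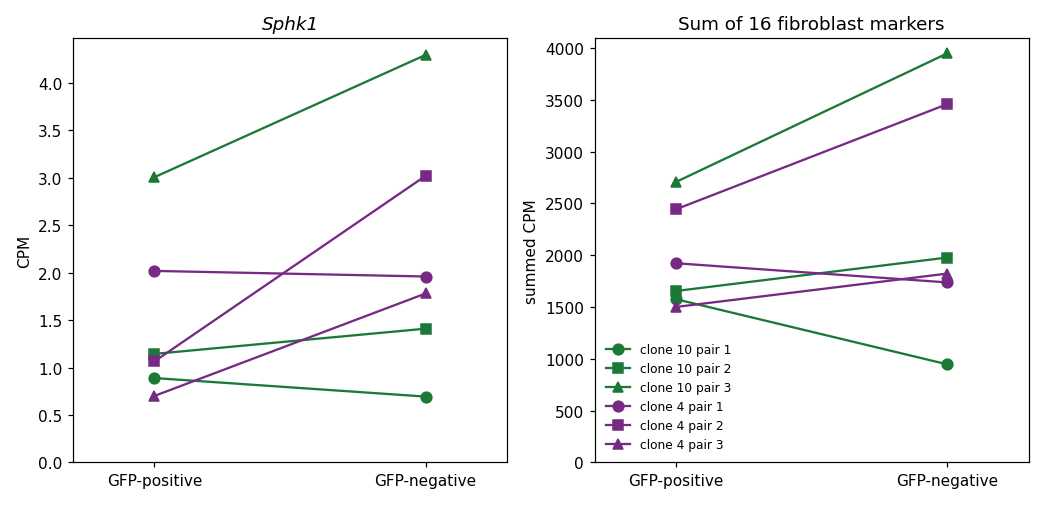
Sphk1 in CPM (left) and the summed CPM of 16 fibroblast markers (right) in GFP-positive and GFP-negative libraries. Each line joins a pair of the same clone and replicate number, with clone 10 in green and clone 4 in purple. Both measures run the same way in 6 of 6 pairs by CPM (5 of 6 after TMM normalization), and clone 10 pair 3 is highest in both. Most of the marker sum comes from Fn1 and Sparc.

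The genes whose pattern over the 12 libraries was most like that of Sphk1 were Lmod1, Rgag4 and Ecm1. Their root mean square difference from Sphk1, in log2 CPM with each gene centred on its own mean, was 0.26, 0.28 and 0.32, against a median of 0.85 over 13060 genes. Lmod1 encodes a smooth muscle actin-binding protein and Ecm1 a protein of the extracellular matrix.

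Sphk2 (ENSMUSG00000057342, chromosome 7, 45709467 to 45718002, minus strand) gave reads in every library although all groups are labelled null for it. In clone 10 it stood at 5.44, 8.13 and 5.92 CPM in GFP-positive cells, against 3.16, 8.34 and 6.68 CPM in its GFP-negative cells. Clone 4 gave 2.45, 1.89 and 7.41 CPM in GFP-positive cells, against 1.19, 3.18 and 6.11 CPM in GFP-negative cells. The gates overlapped, the direction was split evenly over the 6 pairs, and the lowest and highest libraries differed 7.04-fold. Pair means spanned 2.36 on the log2 scale, and differences within a pair ran from -0.70 to 0.93, with a median size of 0.42.

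The log2 change of Sphk2 over both clones was 0.12 across all libraries (SE 0.46, interval -0.87 to 1.11, adjusted p = 0.964) and 0.12 within pairs (SE 0.22, interval -0.37 to 0.62, adjusted p = 0.727). The exact permutation within clones gave p = 0.765. In clone 10 the change of 0.014 across all libraries turned to -0.24 without the shallowest library. Of the exon bases of Sphk2, 21.9% are shared with the clock gene Dbp and the ribosomal protein gene Rpl18 on the opposite strand. How reads in those bases were assigned is unknown, and the part of this overlap in the Sphk2 level was not tested. The labels do not name the deleted exons of Sphk2 either. Reads from any exons that remain would count toward it, so its totals do not check the Sphk2 label. Among the nearest patterns to Sphk2 were those of Zhx1 and Spen, with root mean square differences of 0.30 and 0.32 against a median of 0.98. Zhx1 encodes a zinc finger and homeobox protein, and Spen a transcriptional repressor needed for X inactivation.

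The phosphatase gene Sgpp1 (ENSMUSG00000021054, chromosome 12, 75714248 to 75735729) stood at 19.3, 16.6 and 19.4 CPM in clone 10 GFP-positive cells, against 38.6, 33.2 and 32.2 CPM in clone 4 GFP-positive cells. In GFP-negative cells it stood at 9.56, 15.1 and 17.8 CPM in clone 10, against 32.4, 32.6 and 24.5 CPM in clone 4. Every clone 10 library was below every clone 4 library. The log2 difference of clone 10 over clone 4 was -0.88 in GFP-positive cells (SE 0.22, interval -1.37 to -0.40, adjusted p = 0.0746) and -0.93 in GFP-negative cells (SE 0.22, interval -1.42 to -0.45, adjusted p = 0.15). It missed the threshold in edgeR and passed it in DESeq2, with adjusted p of 0.00219 in GFP-positive and 0.00345 in GFP-negative cells. Without the shallowest library the edgeR values were -0.88 (adjusted p = 0.043) in GFP-positive cells and -0.77 (adjusted p = 0.22) in GFP-negative cells. That library is not a GFP-positive one, and in GFP-positive cells leaving it out kept the difference and lowered its SE to 0.18. It was the only 1 of 12 single libraries whose omission brought the edgeR adjusted p there under 0.05, and the highest such value was 0.252.

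By gate, Sgpp1 was higher on the GFP-positive side of 6 of 6 pairs, by 0.050 to 0.71 on the log2 scale. The change over both clones within pairs was 0.27 (SE 0.12, unadjusted p = 0.0495, adjusted p = 0.189), and 0.17 (SE 0.095) without clone 10 pair 1. Across all libraries it was 0.26 (SE 0.16, adjusted p = 0.757).

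Sgpp2 (ENSMUSG00000032908, chromosome 1, 78310346 to 78420286), the second S1P phosphatase gene, was near the floor of detection, at 4 to 30 counts a library. It averaged 0.419 ± 0.252 CPM in clone 10 GFP-positive cells, against 0.772 ± 0.134 CPM in the GFP-negative cells of clone 10 (SD, n = 3 each). In clone 4 it averaged 0.619 ± 0.205 CPM in GFP-positive cells, against 0.755 ± 0.545 CPM in GFP-negative cells. No difference between the gates was called, and differences within a pair ran from -1.52 to 0.34 on the log2 scale. The change over both clones within pairs was -0.55 with an interval of -1.37 to 0.26, and -0.41 (SE 0.38) without clone 10 pair 1. Of its exon bases, 248 (6.2%) are shared with Farsb on the opposite strand.

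The lyase gene Sgpl1 (ENSMUSG00000020097, chromosome 10, 61098642 to 61147703) was the most abundant of the 8. In clone 10 it stood at 236, 227 and 253 CPM in GFP-positive cells, against 98.3, 164 and 203 CPM in GFP-negative cells. In clone 4 it stood at 206, 373 and 169 CPM in GFP-positive cells, against 175, 402 and 150 CPM in GFP-negative cells. The gates did not overlap in clone 10, where GFP-positive cells were higher, and overlapped in clone 4, where both libraries of pair 2 were high.

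Within pairs, the log2 change of Sgpl1 was 0.57 in clone 10 (SE 0.15, interval 0.22 to 0.91, adjusted p = 0.073) and 0.12 in clone 4 (SE 0.15, interval -0.22 to 0.46, adjusted p = 0.807). It was 0.34 over both clones (SE 0.11, unadjusted p = 0.0109, adjusted p = 0.113). Without clone 10 pair 1 the clone 10 value was 0.37 (SE 0.12, adjusted p = 0.131) and the value over both clones 0.24 (SE 0.079, adjusted p = 0.1). Across all libraries the change in clone 10 was 0.53 (SE 0.37, adjusted p = 0.772), and 0.36 without the shallowest library. The clones' changes differed by 0.45 within pairs (SE 0.21, adjusted p = 0.656), so a difference between clones was not established.

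Aldh3a2 (ENSMUSG00000010025, chromosome 11, 61223417 to 61267464), which acts on the fatty aldehyde that the lyase releases, stood at 58.8, 36.3 and 63.0 CPM in clone 10 GFP-positive cells, against 24.3, 33.2 and 46.7 CPM in the GFP-negative cells of clone 10. Clone 4 had 69.4, 94.7 and 51.3 CPM in GFP-positive cells, against 52.0, 90.2 and 53.6 CPM in GFP-negative cells. The gates overlapped in both clones. Among GFP-negative cells, every clone 10 library was below every clone 4 library, with a log2 difference of -0.76 (SE 0.29, interval -1.39 to -0.13, adjusted p = 0.336). It was -0.62 without the shallowest library and -0.49 without clone 4 GFP-negative replicate 2. Between the gates, the change over both clones was 0.32 within pairs (SE 0.12, unadjusted p = 0.0277, adjusted p = 0.154), and 0.20 (SE 0.088) without clone 10 pair 1.

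**Figure D3:**
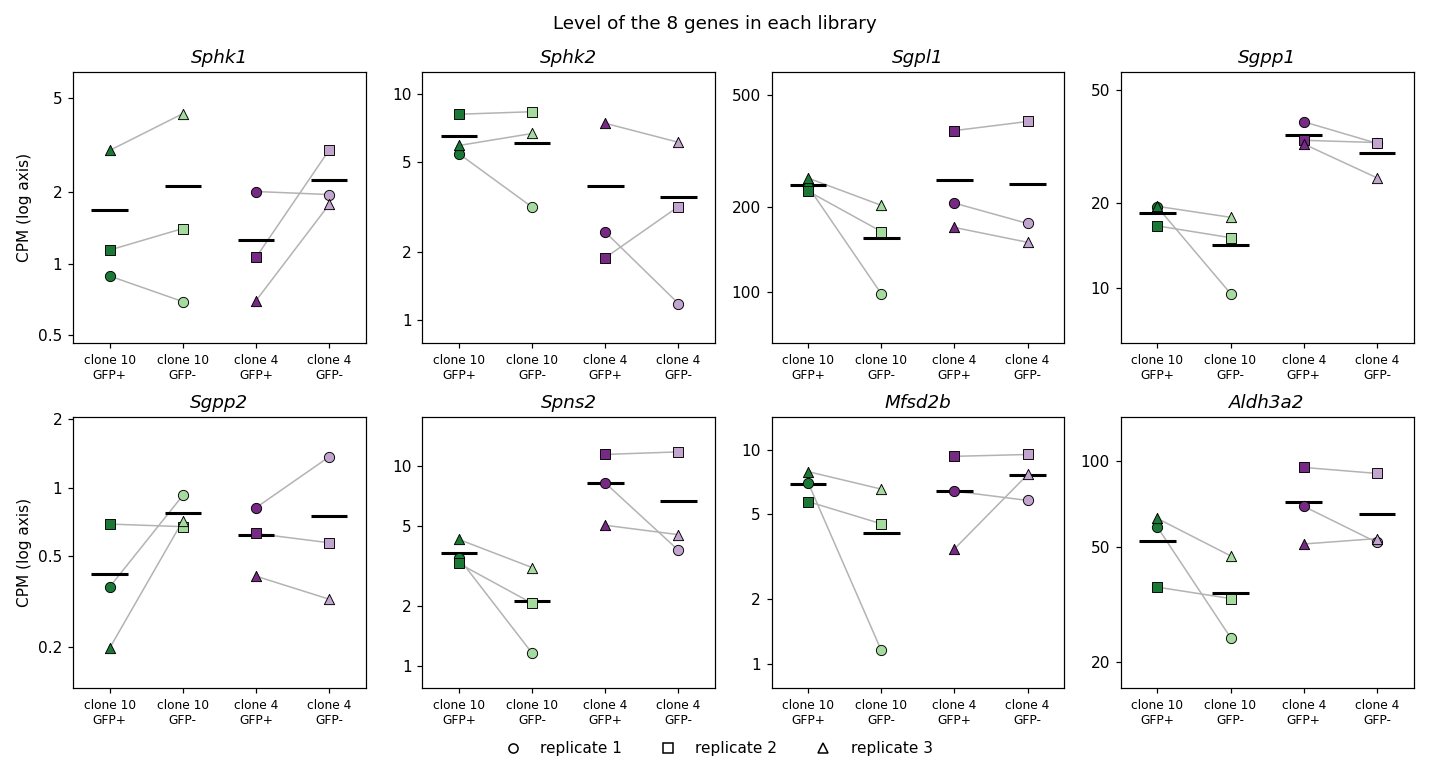
Level of each of the 8 genes in CPM (vertical log axes, a panel per gene) in the 12 libraries. Symbols mark replicates 1 to 3, grey lines join libraries of the same clone and number, and bars are group means. Sgpp1 and Spns2 are lower in every clone 10 library than in any clone 4 library of the same gate, and clone 10 GFP-negative replicate 1 is lowest for 6 genes.

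The exporter gene Spns2 (ENSMUSG00000040447, chromosome 11, 72451638 to 72489904), whose product releases S1P from endothelial cells, stood at 3.45, 3.25 and 4.29 CPM in clone 10 GFP-positive cells, against 8.22, 11.4 and 5.05 CPM in clone 4 GFP-positive cells. In GFP-negative cells it stood at 1.16, 2.05 and 3.10 CPM in clone 10, against 3.78, 11.8 and 4.53 CPM in clone 4. In each gate every clone 10 library was below every clone 4 library, although the clone 4 values varied widely among themselves. The log2 difference of clone 10 over clone 4 was -1.12 in GFP-positive cells (SE 0.47, interval -2.14 to -0.10, adjusted p = 0.294) and -1.51 in GFP-negative cells (SE 0.48, interval -2.55 to -0.47, adjusted p = 0.254), and neither passed the test. In GFP-negative cells it was -1.28 (SE 0.52) without the shallowest library and -0.87 without clone 4 replicate 2.

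Within clone 10, every GFP-positive library had more Spns2 than every GFP-negative library. The change within pairs was 0.73 (SE 0.28, interval 0.086 to 1.37, adjusted p = 0.161) in clone 10 and 0.41 (SE 0.26, adjusted p = 0.703) in clone 4. Over both clones it was 0.57 (SE 0.19, unadjusted p = 0.0159, adjusted p = 0.129), and 0.47 (SE 0.18) without clone 10 pair 1. Clone 10 alone gave 0.54 (SE 0.29) without that pair. Summed endothelial markers were also higher in the GFP-positive cells of clone 10, at 257 to 463 CPM against 110 to 184 CPM in GFP-negative cells. In clone 4 they were 169 to 347 CPM in GFP-positive and 129 to 281 CPM in GFP-negative cells. Of 6 tested endothelial markers 1 was called, Tie1, with a change of 2.70 over both clones within pairs (SE 0.40). Over both clones within pairs, 5 of these 6 markers had a positive change, with a median of 0.62. The sums are not broken down by gene here. Neither the presence of endothelial cells nor their part in the level of Spns2 was tested. Of its exon bases, 131 (3.21%) are shared with Mybbp1a on the opposite strand.

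Mfsd2b (ENSMUSG00000037336, chromosome 12, 4862440 to 4874359), known as the S1P exporter of red blood cells and platelets, stood at 7.01, 5.72 and 7.89 CPM in clone 10 GFP-positive cells, against 1.16, 4.51 and 6.54 CPM in the GFP-negative cells of clone 10. Clone 4 had 6.40, 9.30 and 3.44 CPM in GFP-positive cells, against 5.79, 9.48 and 7.65 CPM in GFP-negative cells. The gates overlapped, and the low value of clone 10 GFP-negative replicate 1 stood apart from its group. The changes within pairs were 0.78 (SE 0.39, adjusted p = 0.241) in clone 10 and -0.33 (SE 0.37, adjusted p = 0.794) in clone 4, and they differed by 1.11 (SE 0.54, adjusted p = 0.656). Without clone 10 pair 1 the clone 10 change was 0.28 (SE 0.28) and the difference between the clones 0.60 (SE 0.36). Over both clones the change of 0.23 turned to -0.024 without that pair. The 10 erythroid and megakaryocyte markers together summed to 18.7, 9.69 and 21.3 CPM in clone 10 GFP-positive cells, against 7.48, 4.97 and 8.31 CPM in its GFP-negative cells. The sums in clone 4 were 6.77 to 19.4 CPM in GFP-positive and 7.89 to 16.4 CPM in GFP-negative cells. Of these markers 3 had enough reads to be tested, and 1, the platelet integrin gene Itga2b, was called higher within pairs in clone 10 (log2 change 1.73, SE 0.27, adjusted p = 0.0124) and over both clones (0.91, SE 0.19, adjusted p = 0.0382). Within pairs, 3 of these 3 markers had a positive change in clone 10 (median 0.093), but only 1 of 3 in clone 4 (median -0.24). Over both clones 1 of 3 was positive, with a median of -0.075. Neither the presence of such cells nor their part in the level of Mfsd2b was tested.

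**Figure D4:**
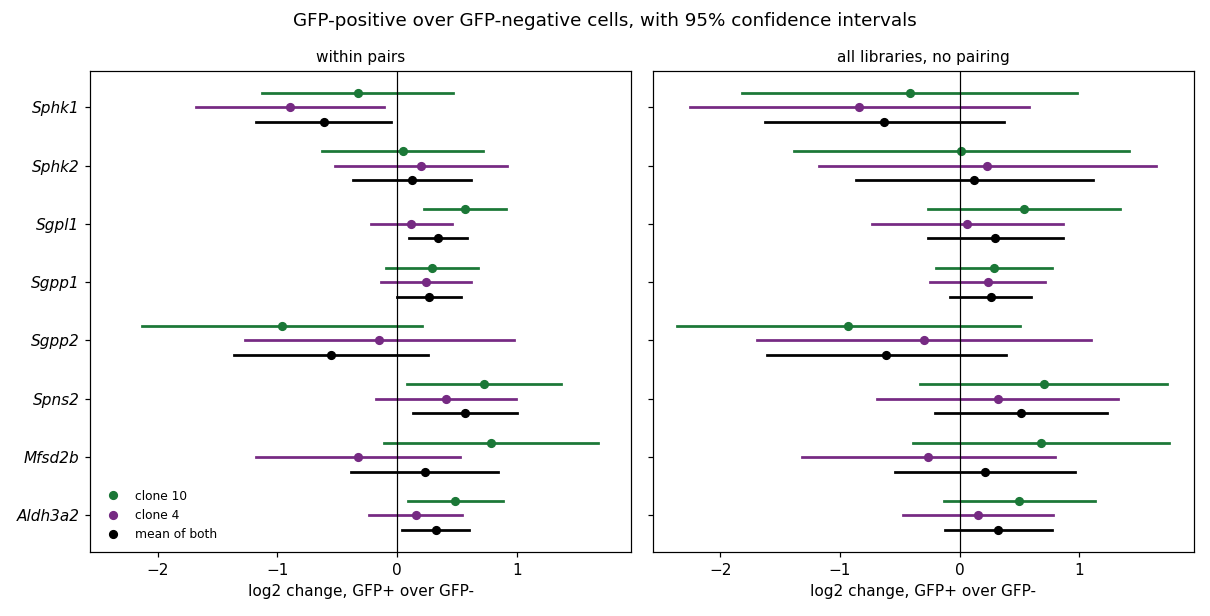
Log2 change of each gene in GFP-positive over GFP-negative cells with its 95% confidence interval, within pairs (left) and across all libraries (right), for clone 10, clone 4 and the mean of both. Intervals are narrower within pairs. Those of Sphk1, Sgpl1, Sgpp1, Spns2 and Aldh3a2 for both clones exclude 0 before adjustment, with Sphk1 at -0.61 and Sgpl1 at 0.34, and none passes after adjustment over all genes.

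Counted together, 0 of the 8 genes were called between the gates by edgeR. Across all libraries the share of all tested genes called was 0% in clone 10, 0% in clone 4 and 0.158% over both clones. Unadjusted p was under 0.05 for 0 of the 8 genes in each of these, against 7.45%, 1.38% and 6.77% of all genes. DESeq2 also called 0 of the 8, against 1.9%, 0.217% and 1.88% of all genes. Within pairs 4.22% of all genes were called in clone 10, 0.119% in clone 4 and 3.36% over both clones. The genes with an unadjusted p under 0.05 within pairs numbered 3 in clone 10 (Sgpl1, Spns2 and Aldh3a2, background 25.2%), 1 in clone 4 (Sphk1, background 7.42%) and 5 over both clones (background 26.3%). Over both clones these were Sphk1, with a negative change, and Sgpl1, Sgpp1, Spns2 and Aldh3a2, with positive ones. Gates did not overlap for 2 of 8 genes in clone 10, where 14.5% of all genes did not, and for 0 of 8 in clone 4, where 3.65% did not.

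Between the clones, edgeR called 0 of 8 genes in each gate, while DESeq2 called 1, Sgpp1, in each. The share of all genes called was 1.11% by edgeR and 5.86% by DESeq2 in GFP-positive cells, and 0.0461% by edgeR and 2.79% by DESeq2 in GFP-negative cells. Unadjusted p was under 0.05 for 2 of 8 genes in GFP-positive cells (Sgpp1 and Spns2, background 14.3%) and for 3 of 8 in GFP-negative cells (these and Aldh3a2, background 11.9%). Clones did not overlap for 2 of 8 genes in GFP-positive cells, where 24.4% of all genes did not, and for 3 of 8 in GFP-negative cells, where 15% did not. These shares are near or above the background, and with 8 genes no more was read from them. Passage numbers differed between the clones. With passage as a covariate Sgpp1 stood at -0.92 (adjusted p = 0.0731) in GFP-positive and -0.97 (adjusted p = 0.128) in GFP-negative cells.

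By edgeR, the gate change differed between the clones for 0 of 8 genes, with 0% of all genes called across all libraries and 0% within pairs. No member had an unadjusted p under 0.05 in either fit, against 0.922% of all genes across all libraries and 7.69% within pairs. DESeq2 called 0 members and 0% of all genes. Adjusted p was 1 for every member across all libraries and at least 0.656 within pairs.

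**Figure D5:**
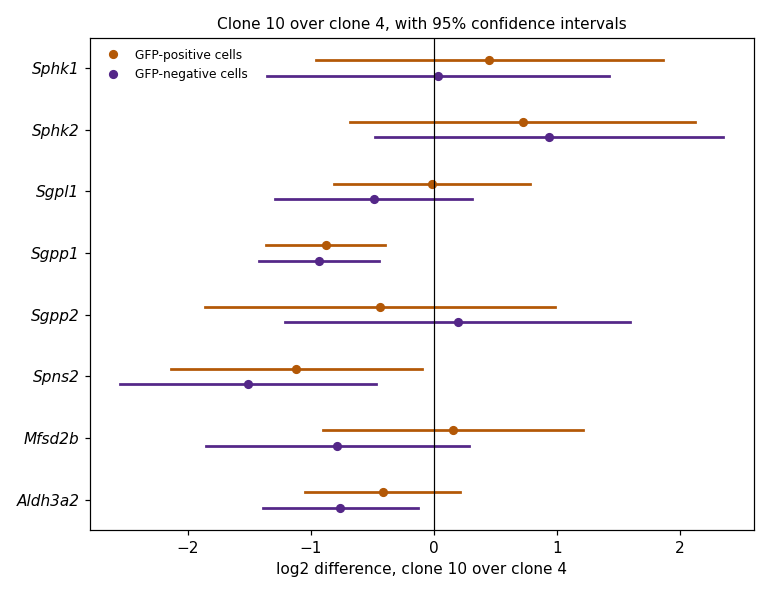
Log2 difference of clone 10 over clone 4 for each gene with its 95% confidence interval, in GFP-positive and in GFP-negative cells, from all libraries. Sgpp1 lies at -0.88 and -0.93 and Spns2 at -1.12 and -1.51, with intervals below 0 before adjustment.

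The neighbouring steps of the pathway were described by lists with 46 tested genes in all. Over both clones 0 of these were called between the gates, by edgeR across all libraries, by edgeR within pairs or by DESeq2, and 17 had an unadjusted p under 0.05 within pairs, against the background of 26.3%. The changes given for them are those over both clones within pairs. Among the receptors that read extracellular S1P, S1pr2 was the highest, at 58.2 CPM, followed by S1pr3 at 6.31 CPM. Their changes were -0.25 (SE 0.096, adjusted p = 0.159) and -0.75 (SE 0.23, adjusted p = 0.111). None of the 5 receptors was called between the gates, and their median change was -0.25.

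The lipid phosphate phosphatases, a second family that can dephosphorylate S1P, were represented by Plpp1 at 67.8 CPM and Plpp3 at 34.4 CPM, with changes of 0.030 (SE 0.083) and 0.025 (SE 0.11). None of the 3 genes of this family was called. On the supply side, Asah1, the lysosomal ceramidase that frees sphingosine, stood at 232 CPM with a change of 0.21 (SE 0.12), and Acer3, a ceramidase of the Golgi and endoplasmic reticulum, at 13.5 CPM with a change of 0.38 (SE 0.12, adjusted p = 0.115). None of the 5 ceramidases was called. Of the ceramide synthases, which compete for sphingosine, Cers2 stood at 68.4 CPM and Cers5 at 66.0 CPM with changes of -0.18 (SE 0.11) and -0.19 (SE 0.086), and 0 of 5 tested were called. Of these 5 genes, 3 had a positive change, and the median was 0.29. The related kinases Cerk, which phosphorylates ceramide, and Agk, which phosphorylates acylglycerol in mitochondria, stood at 14.3 and 12.6 CPM with changes of 0.048 (SE 0.11) and -0.28 (SE 0.12), and 0 of 3 were called.

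Downstream of the lyase, Tecr, the last reductase of fatty acid elongation, was the most abundant gene of the fatty aldehyde and fatty acyl steps, at 152 CPM, with a change of -0.47 (SE 0.11, adjusted p = 0.0657). Acsl3, an acyl-CoA synthetase, stood at 75.7 CPM with a change of 0.078 (SE 0.099). Of the 12 genes in this list, edgeR called 1 in 1 comparison, and DESeq2 called Acsl6, another acyl-CoA synthetase gene, lower in clone 10 than in clone 4 in both gates (log2 differences -1.34 and -1.38 in GFP-positive and GFP-negative cells). Hacd2, a dehydratase of the same elongation cycle, rose in clone 10 GFP-positive cells within pairs, at 58.5 ± 10.2 CPM against 34.9 ± 7.87 CPM in GFP-negative cells (SD, n = 3 each, log2 change 0.64, SE 0.12, edgeR adjusted p = 0.0223). It did not pass across all libraries (adjusted p = 0.368) or by DESeq2 (adjusted p = 0.127). It averaged 41.4 CPM in clone 4 GFP-positive and 40.1 CPM in clone 4 GFP-negative cells. For phosphoethanolamine, the other product of the lyase, the kinase Etnk1 stood at 498 CPM with a change of 0.11 (SE 0.10) and Pcyt2, the next enzyme of that route, at 46.6 CPM with a change of -0.31 (SE 0.096, adjusted p = 0.114), and 0 of 6 tested were called. Among other carriers and relatives of the exporters, Spns1, a lysosomal lipid transporter, stood at 176 CPM and Abcc1 at 87.4 CPM, with changes of -0.20 (SE 0.084) and -0.023 (SE 0.17), and 0 of 7 were called by edgeR. DESeq2 called Apom, the gene of a plasma carrier of S1P, higher in clone 10 than in clone 4 in both gates (log2 differences 1.61 and 1.70 in GFP-positive and GFP-negative cells). List medians over both clones within pairs ran from -0.25 for the receptors to 0.29 for the ceramide synthases, against 0.0031 over all tested genes.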

How the data were processed

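Whole-number read counts per gene in 12 libraries were used as deposited by the authors, who named STAR 2.3.0e, HTSeq 0.6.0, DESeq2, DESeq and mm10 in the submitters' processing notes. Which annotation they used, and whether strand was counted, is not given in the sources used here. Per the file headers, the authors' deposited tables for each clone also hold log2 fold changes with standard errors and p-values, and were used for Sphk1 and for symbols and coordinates. Exon lengths and overlaps come from GENCODE M21.

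The main test was the robust quasi-likelihood test of edgeR 4.0.16 with TMM normalization (R 4.3.3, limma 3.58.1). All libraries entered 1 fit with a mean for each group and 8 residual degrees of freedom. The filter asked for 10 counts at the median library size in 3 libraries and 15 in total, which left 15179 genes and removed 7574. A fit with the pair as a block left 4 residual degrees of freedom. Replicate numbers pair the gates within a clone: deviations from group means correlated at 0.548 to 0.822 in same-numbered pairs and at -0.541 to -0.228 otherwise. Deviations within a group sum to 0, so the negative values follow from the positive ones and add no separate evidence. The biological coefficient of variation was 0.389, and 0.175 within pairs. DESeq2 1.42.0, other normalization, no filter, passage as a covariate and leaving out libraries were alternatives. The code was checked on simulated data. Log2 CPM used a prior count of 2.

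All 8 genes were named. Of each list, called genes and the 2 of highest mean CPM were named, and for each kinase gene the 3 nearest patterns, passing over predicted names; 1 of those of Sphk2 is not reported here. The members and lists were chosen with earlier results of these data known.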

Additional observations from a re-analysis of the deposited data

How the results depend on the processing

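Under other normalization, filtering, tests and covariates, 248 of 256 recomputed changes of the 8 genes kept their direction and their side of the threshold, 6 turned and 2 passed. Those that passed were Sgpp1 in both clone comparisons by DESeq2, which called 1 of the 8 genes in each gate. The cause of these differences was not tested. With passage as a covariate the change of Sphk2 in clone 10 was -0.047, and clone 10 over clone 4 was -0.18 for Sphk1 and -0.11 for Mfsd2b in GFP-positive cells and -0.52 for Sphk1 in GFP-negative cells. With the replicate number shared by the clones as a block, clone 10 over clone 4 was 0.066 for Sgpl1 in GFP-positive and -0.16 for Sphk1 in GFP-negative cells. Across the clones, deviations correlated at 0.399 to 0.588 for replicate 1 and at -0.425 to -0.0714 for the same-numbered replicates 2 and 3, and at 0.54 to 0.683 for clone 10 replicate 2 with clone 4 replicate 3 and 0.387 to 0.53 for clone 10 replicate 3 with clone 4 replicate 2. The number thus does not pair the clones, and the clone comparisons carry no term for these correlations. The block of same-clone pairs changed no call among the 8 genes.

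Counts over all genes moved more. Without the filter edgeR called 6 genes between the gates of clone 10, 67 over both clones and 4 between the clones in GFP-negative cells. DESeq2 called 289 in clone 10, 33 in clone 4, 286 over both clones, 890 between the clones in GFP-positive and 424 in GFP-negative cells. The passage covariate gave 86 in clone 10, 138 over both clones, 376 and 22. The pair block gave 641 in clone 10, 18 in clone 4 and 510 over both clones, and the shared number 595 and 136.

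Leaving out libraries or pairs, the counts over all genes ran from 0 to 657 in clone 10, 0 to 207 in clone 4, 0 to 980 over both clones, 0 to 287 and 0 to 19 between the clones in GFP-positive and GFP-negative cells, and 0 to 1 for the difference of the gate changes. Of the 8 genes, 0 to 1 were then called between the clones in GFP-positive cells (Sgpp1) and 0 elsewhere. Directions turned in 41 of 768 values. In clone 10 the gate change ran from -1.07 to 0.45 for Sphk1, highest without GFP-negative replicate 3, and from -0.24 to 0.33 for Sphk2. In clone 4 it ran from -0.70 to 0.95 for Sphk2, -0.32 to 0.60 for Sgpl1, -0.66 to 0.48 for Sgpp2, -0.61 to 0.043 for Mfsd2b and -0.074 to 0.42 for Aldh3a2. Over both clones it ran from -0.95 to -0.19 for Sphk1, -0.34 to 0.48 for Sphk2 and -0.024 to 0.42 for Mfsd2b. Clone 10 over clone 4 in GFP-positive cells ran from -0.21 to 0.92 for Sphk1, -0.20 to 0.36 for Sgpl1 and -0.12 to 0.50 for Mfsd2b. In GFP-negative cells it ran from -0.84 to 0.40 for Sphk1, -0.73 to 0.043 for Sgpl1 and -0.17 to 0.97 for Sgpp2. The difference of the gate changes ran from -0.24 to 1.29 for Sphk1, -0.94 to 0.72 for Sphk2, -0.067 to 0.85 for Sgpl1, -0.14 to 0.17 for Sgpp1 and -0.26 to 0.67 for Spns2. Counts per library were 9 to 90 for Sphk1 and 4 to 30 for Sgpp2.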
